A study of Mus musculus with 6 samples.

Results

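The 10 genes described here are a set of transcripts used to recognise mesenchymal and perivascular cells: Twist1, Twist2, Prrx1, Snai2, Pdgfrb, Acta2, Tagln, Dcn, Lum and Mgp. They were chosen by name, and all 10 were found among the 22048 genes of the RNA-Seq table, of which 21781 carried a symbol. Samples were neurospheres, floating clusters of neural stem and progenitor cells (NSC/NPCs), grown from the hypothalamus of male C57BL/6 fetuses and harvested at first passage. In the high estradiol (HE) group the dams, 8 weeks old, were gavaged with estradiol valerate at 100 μg/kg/d from E5.5 to E11.5. In the control (NC) group the dams received corn oil, the solvent, although the sample labels call those samples untreated. Cells of both groups were isolated at E14.5, kept in medium with EGF and bFGF, and pooled from 2 mice per sample, giving 3 HE and 3 NC samples. The fetuses were exposed through the dam, and estradiol was not among the stated ingredients of the culture medium.

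Mesenchymal cells of the developing head supply the meninges, the connective tissue around vessels and the mural cells of the vessel wall, which comprise pericytes and smooth muscle. Twist1, Twist2, Prrx1 and Snai2 encode transcription factors of mesenchyme that also act in epithelial-mesenchymal transition, the change by which epithelial cells lose their junctions and become migratory. Pdgfrb encodes the PDGF receptor through which mural cells are recruited to vessels, Acta2 and Tagln encode proteins of the contractile apparatus, and Dcn, Lum and Mgp encode proteins secreted into the extracellular matrix. Several of these genes are also active outside mesenchyme: Tagln and Acta2 are induced in many adherent cell types, so a transcript in a culture of mixed cells does not identify its source. In bulk samples, fewer cells of a type and less RNA per cell cannot be told apart.

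Promoter sequence from RefSeq (GRCm38.p6), reaching 250 bases before the start site, was given for 4 of the 10 members, namely Twist1, Twist2, Prrx1 and Acta2. Twist1 is shown because it was the transcription factor of the set whose groups did not overlap, and its window lies at chr12:33957421-33957670 on the plus strand, with a TATAAA match in capitals. For Acta2, at chr19:34255438-34255467 and chr19:34255388-34255417 on the minus strand, only 30 bases are printed around each of 2 near matches to the CArG box, which is the element read by serum response factor in contractile genes. The near matches are in capitals. The window lies partly inside the annotated gene span, and both printed stretches lie wholly inside it. The start site of the window is thus not the outer end of that span.
Twist1: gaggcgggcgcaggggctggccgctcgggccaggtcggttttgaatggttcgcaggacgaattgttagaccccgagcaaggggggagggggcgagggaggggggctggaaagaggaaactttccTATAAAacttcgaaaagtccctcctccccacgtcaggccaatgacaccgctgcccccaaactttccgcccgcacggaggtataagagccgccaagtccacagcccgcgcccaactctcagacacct
Acta2, first match: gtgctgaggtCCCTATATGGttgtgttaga
Acta2, second match: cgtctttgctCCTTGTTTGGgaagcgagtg
Searched on both strands, TATAAA lay in 12.4% of the 32851 windows of this length and, in Twist1, began 126 bases before the start site (position -126). A CArG box in which CC and GG flank 6 bases of A or T lay in 1.47% of windows and in none of the 4. With 1 G or C allowed among the 6 inner bases, the share was 8.59%, and the Acta2 matches began at -84 and -34. The E-box CANNTG, the letters bound by TWIST and SNAI proteins among other factors, lay in 66.2% of windows, with 3 matches in Acta2 and none in Twist1. The palindromic estrogen response element GGTCANNNTGACC lay in 0.0639% of windows and in none of these 4. These matches describe letters only, and binding was not measured.

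Between 16078675 and 19137059 reads per sample fell on genes, so that 1 read on a gene of 1 kilobase was worth 0.0523 to 0.0622 RPKM (reads per kilobase of gene, scaled to the library's total). The groups were compared by limma, applied to log2(RPKM + 0.1), in 13952 genes, of which 7 were members, while Twist2, Snai2 and Lum fell below the filter on low reads. Fold changes below are HE minus NC on that log2 scale, which understates the change of genes at low levels, and the p-values measure only the spread between these samples. No gene was called, which required an adjusted p under 0.05 and a change of at least 1 on the log2 scale (0%), while 2858 genes (20.5%) had an unadjusted p under 0.05, and voom on the reads also called 0 genes, with 2914 under that limit. One library, HE3, stood apart: its median tested gene lay -0.17 from the NC mean on the log2 scale, against -0.02 to 0.02 in the other samples, and its total exceeded its median-of-ratios size factor by 0.15 log2 units. Of the progenitor genes, Sox2 was at 97.3 to 209 RPKM and Nes at 154 to 247 RPKM. Genes of glial lists were also high, with the astrocyte gene Aldh1l1 at 482 to 698 RPKM. Olig1, of the oligodendrocyte lineage, was at 134 to 312 RPKM, and the share of each cell type was not tested. Genes of mural cells were at uneven levels: Myh11, the smooth muscle myosin, was at 0.178 to 0.328 RPKM, Rgs5, a pericyte gene, at 0.0697 to 0.265 RPKM, and Myocd, the cofactor of smooth muscle genes, at 0 to 3 reads. Others of the same lists were higher, with Mcam at 18.7 to 30.8 RPKM and Notch3 at 12.1 to 25.1 RPKM. Cspg4 was at 7.14 to 16.4 RPKM and Myl9 at 25.9 to 46.8 RPKM. Ndufa4l2 and Cox4i2, also of the pericyte list, were at 4.08 to 37 RPKM and 1.03 to 29.4 RPKM, each lowest in HE3. The perivascular name of the set is its label and was not tested as a statement about the cells present.

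Among the 7 tested members, Twist1, Dcn and Mgp lay above every NC sample in every HE sample, and none lay below throughout. Across all tested genes 14.8% were placed above and 17.9% below in this way, or 32.7% together. The same 3 members combined an unadjusted p under 0.05 with an upward change of 1 log2 unit or more, which was met by 1.02% of all tested genes. Prrx1, Pdgfrb, Acta2 and Tagln overlapped between the groups. The median log2 fold change of the 7 was 0.55, with 5 members higher and 2 lower, beside a median of -0.06 and 43.8% of genes higher over all tested genes. No member passed the adjusted threshold. The members were picked with earlier results of these data known, so these counts describe the set and test nothing about it.

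**Figure D1:**
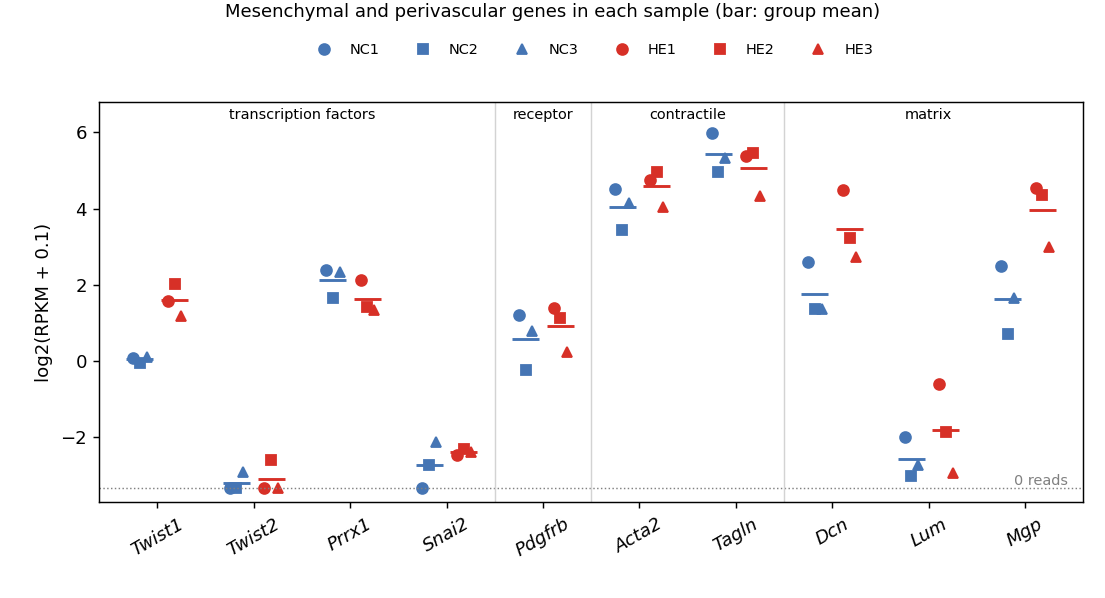
Level of each of the 10 members in each of the 6 samples, as log2(RPKM + 0.1), with NC samples in blue, HE samples in red and the horizontal bar at the group mean of the log2 values. Twist1, Dcn and Mgp show every HE point above every NC point, while Twist2 and Snai2 sit near the dotted line that marks 0 reads.

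Of the transcription factors, Twist1 (ENSMUSG00000035799, chromosome 12 at 33957671 to 33959831) encodes a basic helix-loop-helix protein that specifies cranial mesenchyme and represses E-cadherin. Its level was 0.956, 0.873 and 0.98 RPKM in NC1, NC2 and NC3 and 2.9, 3.93 and 2.19 RPKM in HE1, HE2 and HE3. The 3 NC samples were nearly level, and the lowest HE sample lay above all of them. The means were 0.936 ± 0.0561 RPKM (SD, n = 3) in NC and 3.01 ± 0.871 RPKM (SD, n = 3) in HE, a ratio of 3.21. The log2 fold change was 1.55 (SE 0.23, 95% interval 1.00 to 2.10), with an unadjusted p of 2.60e-04 and an adjusted p of 0.195 in limma. Only 0.09% of tested genes had a smaller unadjusted p. The values rest on 27 to 30 reads per NC sample and on 57 to 121 reads per HE sample.

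Prrx1 (ENSMUSG00000026586, chromosome 1 at 163245119 to 163315145), a homeobox factor of limb and craniofacial mesenchyme, was the most abundant of the 4 factors in RPKM in NC. It measured 5.18, 3.06 and 4.96 RPKM in the NC samples and 4.25, 2.57 and 2.44 RPKM in the HE samples. NC2 lay between HE1 and HE2, so the groups overlapped. The means were 4.4 ± 1.17 RPKM (SD, n = 3) in NC and 3.09 ± 1.01 RPKM (SD, n = 3) in HE. The log2 fold change was -0.50 (SE 0.29, 95% interval -1.18 to 0.17), with an adjusted p of 0.324 in limma. Prrx1 and Twist1, both factors of mesenchyme, thus had fold changes of opposite sign, and the ratio of Twist1 to Prrx1 RPKM was 0.185, 0.286 and 0.198 in NC and 0.682, 1.53 and 0.897 in HE.

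Twist2 (ENSMUSG00000007805, chromosome 1 at 91801461 to 91848034), a close relative of Twist1 active in dermal mesenchyme, had 0, 0 and 2 reads in NC and 0, 4 and 0 reads in HE. Snai2 (ENSMUSG00000022676, chromosome 16 at 14705852 to 14709395), which encodes the repressor Slug of neural crest and mesenchyme, had 0, 2 and 5 reads in NC and 3, 4 and 3 reads in HE. Both lay around the 3 reads that a count of 0 allows at this depth, equal to 0.0494 to 0.0588 RPKM for Twist2 and 0.0772 to 0.0919 RPKM for Snai2, so a difference between the groups was not detectable. These limits, like the intervals on reads given further on, cover counting error only.

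Pdgfrb (ENSMUSG00000024620, chromosome 18 at 61045127 to 61085067) was the receptor of the set. It measured 2.21, 0.744 and 1.63 RPKM in the NC samples and 2.52, 2.09 and 1.07 RPKM in the HE samples. NC2 was the lowest and HE1 the highest, and NC1 and NC3 both exceeded HE3. Limma gave a log2 fold change of 0.33 (SE 0.44, 95% interval -0.71 to 1.37), with an adjusted p of 0.664, and without NC2 it was -0.085. The interval spans a change of more than 1 log2 unit upward, so the data do not show that the receptor was the same in both groups.

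Acta2 (ENSMUSG00000035783, chromosome 19 at 34240336 to 34255585) encodes smooth muscle alpha-actin. Its level was 22.8, 10.7 and 17.6 RPKM in the NC samples and 26.7, 30.8 and 16.4 RPKM in the HE samples. HE1 and HE2 were above every NC sample, while HE3 lay below NC1 and NC3. The log2 fold change was 0.55 (SE 0.33, 95% interval -0.22 to 1.32), with an adjusted p of 0.341 in limma. Without HE3 the remaining HE samples were both above every NC sample, at a log2 fold change of 0.82, where 20.6% of all tested genes were so placed. Reads could be shared with other actin genes, whose levels were 1950 to 3890 RPKM for Actb, 722 to 994 RPKM for Actg1, 1.01 to 5.64 RPKM for Actc1 and at most 0.256 RPKM for Acta1 and Actg2.

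Tagln (ENSMUSG00000032085, chromosome 9 at 45929628 to 45936058), which encodes the actin-binding protein transgelin, was the most abundant member in each of the 6 samples, followed by Acta2 in each. It measured 63.3, 30.7 and 40.3 RPKM in the NC samples and 41.7, 43.7 and 20.1 RPKM in the HE samples. NC1 was the highest and HE3 the lowest, with the other 4 samples between them. Its log2 fold change was -0.37 (SE 0.36, 95% interval -1.22 to 0.49), with an adjusted p of 0.552 in limma, and it was -0.0049 without HE3. The annotated span of Tagln overlaps that of Pcsk7, a protease gene at 10.5 to 17.4 RPKM, and the use of strand in counting is not stated, so reads could be shared.

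The matrix members held the widest range. Mgp (ENSMUSG00000030218, chromosome 6 at 136872435 to 136875823) encodes matrix Gla protein, an inhibitor of calcification made by vascular smooth muscle and cartilage cells. Its level was 5.48, 1.54 and 3.07 RPKM in the NC samples and 23, 20.5 and 7.91 RPKM in the HE samples. The lowest HE sample lay above the highest NC sample, and the highest of the 6 was 14.9 times the lowest. The means were 3.36 ± 1.98 RPKM (SD, n = 3) in NC and 17.1 ± 8.09 RPKM (SD, n = 3) in HE, a ratio of 5.1. The log2 fold change was 2.35 (SE 0.54, 95% interval 1.09 to 3.61), with an unadjusted p of 0.00303 and an adjusted p of 0.195 in limma. A smaller unadjusted p was found in 1.42% of tested genes.

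Dcn (ENSMUSG00000019929, chromosome 10 at 97479500 to 97518163) encodes decorin, a small leucine-rich proteoglycan that binds collagen and TGF-beta. It measured 5.96, 2.46 and 2.46 RPKM in the NC samples and 22.3, 9.18 and 6.48 RPKM in the HE samples. HE1 was far above the rest, while HE3 exceeded NC1 by only a small margin. The means were 3.62 ± 2.02 RPKM (SD, n = 3) in NC and 12.7 ± 8.48 RPKM (SD, n = 3) in HE, a ratio of 3.49. The log2 fold change was 1.70 (SE 0.51, 95% interval 0.50 to 2.91), with an unadjusted p of 0.0122 and an adjusted p of 0.195 in limma. A smaller unadjusted p was found in 6.08% of tested genes. Without HE1 the log2 fold change was 1.20.

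Lum (ENSMUSG00000036446, chromosome 10 at 97565501 to 97572703) encodes lumican, another small leucine-rich proteoglycan, and begins 47337 bases beyond the end of Dcn. Its reads numbered 6, 1 and 2 in NC and 21, 7 and 1 in HE, equal to 0.154, 0.0252 and 0.0509 RPKM against 0.565, 0.177 and 0.03 RPKM. HE1 was the highest for both neighbours, but the lowest HE sample of Lum lay within the NC range. Lum was not tested.

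**Figure D2:**
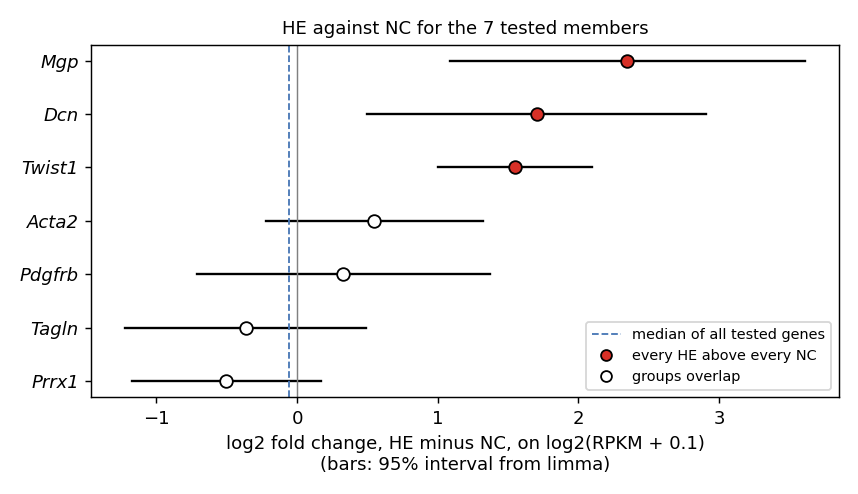
Log2 fold change of HE against NC for the 7 tested members on log2(RPKM + 0.1), with 95% intervals from limma and the median of all tested genes as a dashed line. The intervals of Mgp, Dcn and Twist1 (filled) lie above 0, and those of Acta2, Pdgfrb, Tagln and Prrx1 (open, groups overlapping) include 0.

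By RPKM, Tagln exceeded Acta2 by 0.94 log2 units on average (SD 0.53 over the 6 samples), and Acta2 exceeded Mgp in all 6 samples. Mgp exceeded Dcn, and Twist1 exceeded Pdgfrb, in 4 of 6 samples, and Lum exceeded Snai2 in 3 of 6, so these neighbours did not differ beyond their spread. Dcn exceeded Prrx1 in 4 of 6 samples, namely NC1 and the HE samples. The ratio of Prrx1 to Dcn was 0.87, 1.24 and 2.02 in NC and 0.191, 0.28 and 0.378 in HE. Its size thus did not overlap between the groups, although the order of the pair in NC1 was that of HE. Mgp had rank 3 in each HE sample and rank 4 or 5 in the NC samples. Prrx1 had rank 3 in NC2 and NC3, rank 5 in NC1 and rank 5 or 6 in HE.

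Sample by sample, no sample was high in every member. NC2 was the lowest sample for 4 of the 7 tested members and among the lowest 2 for 6 of them. HE1 was the highest for 3 members, and HE2 and NC1 for 2 each. HE1 and HE2 were each among the highest 2 samples for 5 of the 7. HE3 was the lowest for Prrx1 and Tagln and among the lowest 2 for 4 members, yet it stood above every NC sample in Twist1, Dcn and Mgp. The order of the samples thus differed from member to member.

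**Figure D3:**
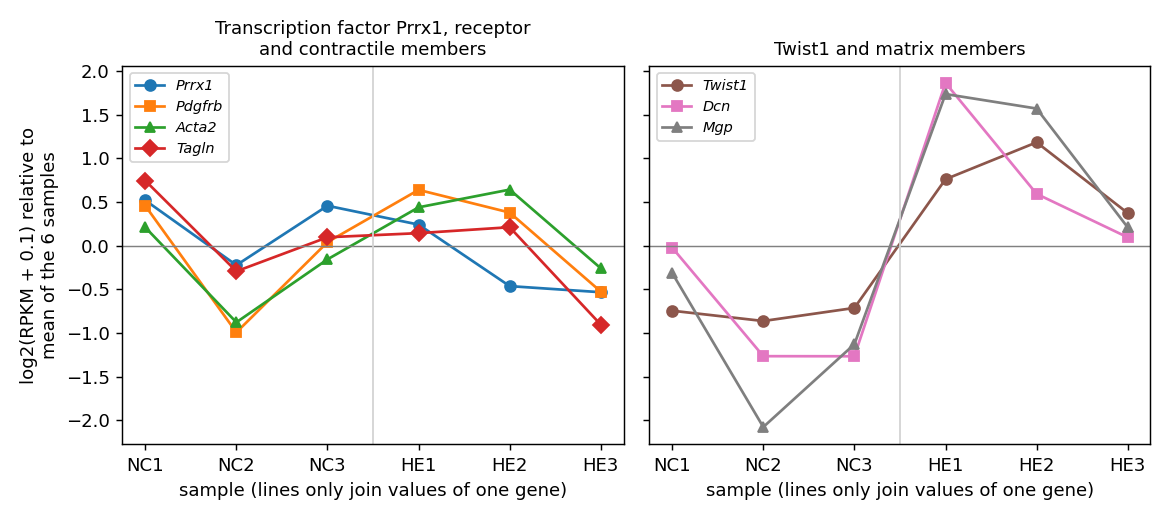
Each tested member as log2(RPKM + 0.1) relative to its own mean over the 6 samples, with Prrx1, Pdgfrb, Acta2 and Tagln on the left and Twist1, Dcn and Mgp on the right. On the left NC2 and HE3 lie below the mean of each gene and the groups overlap, although in Prrx1 HE2 lies below NC2. On the right every HE sample lies above every NC sample.

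Summed by role, the matrix members stood apart from the rest. The 3 matrix members together took 19.2, 7 and 8.87 RPM (reads scaled to the library's total, without division by gene length) in the NC samples and 75, 43.8 and 22.9 RPM in the HE samples. The Wilson 95% interval of the lowest HE sample, HE3, was 20.7 to 25.4, and that of the highest NC sample, NC1, was 17.4 to 21.3, so these touch. The means were 11.7 ± 6.59 and 47.3 ± 26.2 RPM (SD, n = 3 each), and the exact two-sided permutation p was 0.1, the smallest that 3 against 3 samples allow, or 0.5 after Benjamini-Hochberg adjustment over 5 sums. The contractile pair took 101 ± 36.9 RPM in NC and 99.6 ± 33.8 in HE (SD, n = 3 each, exact permutation p = 1). The 4 transcription factors, most of whose reads were Prrx1 reads, took 50.4 ± 13.1 RPM in NC and 39.3 ± 11.2 in HE (SD, n = 3 each, exact permutation p = 0.2). All 10 members together took 231, 114 and 170 RPM in NC and 254, 215 and 121 in HE, with an exact permutation p of 0.7. The total was thus dominated by Tagln, Acta2 and Prrx1 and did not carry the difference seen in the matrix members.

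**Figure D4:**
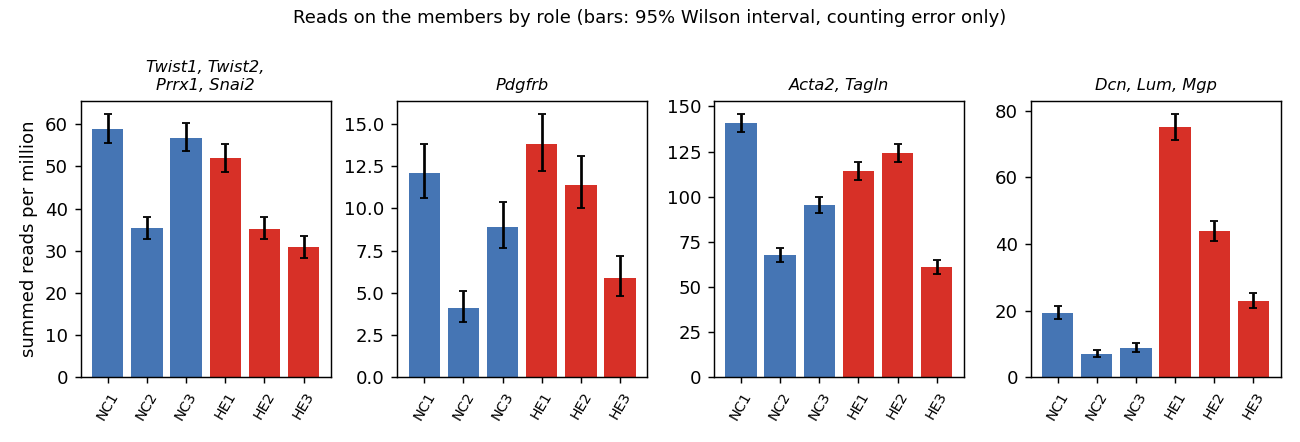
Summed RPM of the members of each role (the axis label writes it out) in each sample, with Wilson 95% intervals that cover counting error only (the axes start at 0 and differ in height between panels). The matrix sum is higher in each HE sample than in each NC sample, and the other 3 sums overlap between the groups.

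Ratios between members within a sample do not depend on the scaling of the library. Of the 21 ratios between 2 tested members, 15 did not overlap between the groups, 10 of them higher and 5 lower in HE. Over all pairs of tested genes, 30.8% of ratios did not overlap, and the 21 ratios share their members and are not independent. Each of the 15 had an exact two-sided permutation p of 0.1, the smallest possible, or 0.14 after adjustment over the 21. Mgp to Tagln measured 0.0866, 0.0501 and 0.0761 in NC and 0.552, 0.469 and 0.394 in HE, so that the group gap exceeded the spread within either group. Acta2 to Tagln, the pair of contractile genes, was 0.36, 0.346 and 0.438 in NC and 0.641, 0.704 and 0.817 in HE. The ratio with the smallest range of the 21 was Pdgfrb to Acta2, which stayed between 0.065 and 0.097 over the 6 samples, a range of 1.49-fold, while each gene alone ranged over 3.38-fold and 2.89-fold. Dcn to Mgp and Twist1 to Dcn overlapped between the groups. These ratios were picked for description after their values were seen.

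For each tested member, the genes whose profile over the 6 samples was most like it were found among 11507 tested genes with a mean of at least 1 RPKM, by the mean absolute difference of centred log2(RPKM + 0.1) values. Mgp was nearest to Ctsk, the collagen-degrading cathepsin K (0.35), then to Dcn (0.41) and to Col3a1, a fibrillar collagen gene (0.42). Dcn was nearest to Aldh1a2, which makes retinoic acid in the meninges (0.26), to Wnt2, a secreted ligand (0.34), and to Rnase4 (0.35). Twist1 was nearest to Cox6a2 (0.21), Enpp1 (0.24) and Lrrc17 (0.24). These genes, like Dcn itself, all lay above every NC sample in every HE sample, where 14.8% of all tested genes did. They were picked for profiles like those of members so placed, so this placement largely follows from the choice.

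The members whose groups overlapped were nearest to other genes. Acta2 was nearest to Arc (0.10), Fibin (0.11) and Gpr135 (0.16), and Pdgfrb to Emp1 (0.14), Fibin (0.14) and Mfsd2a (0.16). Tagln was nearest to Plpp2, Col5a1 and Mmp2 (each 0.12). Prrx1 had the closest matches of all, in Pak1 (0.07) and in Stxbp6 and Sema7a (each 0.08). The measure is a description over 6 samples, since a distance of this kind is small for any gene that varies little.

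Of 20 genes of fibroblast matrix, 19 were tested, 14 were higher and 5 lower, and 6 had an unadjusted p under 0.05 upward against none downward, where 8.68% and 11.8% of all tested genes had such a p. Their median log2 fold change was 0.44, or 0.26 without HE2 and 0.25 with a pseudocount of 1. Col3a1 measured 43.3, 12.2 and 25 RPKM in NC and 92.7, 71.6 and 45.7 RPKM in HE (log2 fold change 1.50, SE 0.46, adjusted p = 0.195 in limma). Pcolce, an enhancer of collagen processing, had a log2 fold change of 0.96 (SE 0.25), Fap, a fibroblast protease at up to 0.256 RPKM, one of 0.96 (SE 0.29), and Serpinf1, a secreted serpin, one of 1.11 (SE 0.39), each with an adjusted p of 0.195 to 0.209. The most abundant gene of the list, Fbln2, at 245 to 400 RPKM, overlapped between the groups (0.25, SE 0.21). Among the 5 lower genes, Sparc was at 240 to 344 RPKM (-0.10, SE 0.16) and Col6a1 at 33.2 to 107 RPKM (-0.48, SE 0.40), both overlapping. Col1a1 and Col1a2, the type I collagen genes, had values of 0.92 and 0.65 with overlapping groups. The other small leucine-rich proteoglycans were not alike: 4 of 10 were tested, and Prelp had a log2 fold change of -1.07 (SE 0.27), with 1.96, 1.39 and 1.49 RPKM in NC and 1.04, 0.58 and 0.585 RPKM in HE, while Bgn stood at 0.62 (SE 0.59).

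Of 11 genes of the meninges, 9 were tested, and 5 lay above every NC sample in every HE sample, where 14.8% of all tested genes did. Slc6a13, a transporter for GABA, measured 1.3, 1.64 and 1.64 RPKM in NC and 4.19, 3.5 and 2.81 RPKM in HE (log2 fold change 1.14, SE 0.20, adjusted p = 0.195 in limma). Nnmt and Ngfr had log2 fold changes of 1.56 (SE 0.28) and 1.67 (SE 0.36) at levels below 1 RPKM. Islr, the most abundant gene of the list, went against these, with 76.1, 56.2 and 59.4 RPKM in NC and 45.4, 29 and 25.1 RPKM in HE (-0.98, SE 0.23). Foxc1, at 2.92 to 3.95 RPKM, stood at 0.0014 (SE 0.17) and Crabp2 at 0.18 (SE 0.61), both with overlapping groups. The median of the list, 1.14, was 0.34 with a pseudocount of 1 and 0.42 over the 6 genes with at least 10 reads in every sample, so its size rested on genes at low levels.

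Pericyte genes had no common direction. Of 13 pericyte genes, 10 were tested, 6 higher and 4 lower, with a median log2 fold change of 0.16 that became -0.043 without HE1 and 0.29 without HE3. Vtn lay above every NC sample in every HE sample, and Notch3 (narrowly) and Cox4i2 lay below. Across all tested genes 14.8% lay above and 17.9% below. Cox4i2 measured 29.4, 21.1 and 23.6 RPKM in NC and 20.1, 19.1 and 1.03 RPKM in HE (-1.70, SE 1.04). Vtn, which encodes vitronectin, measured 0.84, 0.952 and 3.8 RPKM in NC and 8.2, 8.52 and 8.12 RPKM in HE (2.42, SE 0.51, adjusted p = 0.195 in limma). Without NC3 the log2 fold change of Vtn was 3.07, with an adjusted p of 0.00327, whereas over the other alternatives its adjusted p ran from 0.106 to 0.502. Notch3, the Notch receptor of mural cells, stood at 25, 20.6 and 25.1 RPKM in NC and 17.4, 20.6 and 12.1 RPKM in HE (-0.52, SE 0.20). The most abundant, Ndufa4l2, was at 4.08 RPKM in HE3 and 19.8 to 37 RPKM in the other 5 samples, so its log2 fold change of -0.71 became 0.31 without HE3.

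Of 10 smooth muscle genes 8 were tested, and 7 were lower in HE, 3 of them with an unadjusted p under 0.05, where 11.8% of all tested genes had such a p downward. The median log2 fold change was -0.59, but -0.26 without HE3 and -0.24 with a pseudocount of 1. Relative to the NC mean, the median gene of the list lay at -0.25 in HE1, -0.14 in HE2 and -1.16 in HE3, beside -0.18 in NC3. Cnn1, which encodes the contractile regulator calponin, measured 4.7, 4.21 and 4.17 RPKM in NC and 1.3, 0.841 and 0.368 RPKM in HE (-2.39, SE 0.38, unadjusted p = 3.47e-04, adjusted p = 0.195 in limma). Lmod1, an actin nucleator of smooth muscle, stood at -1.01 (SE 0.39) and Synpo2 at -0.69 (SE 0.29), at levels of 0.189 to 1.1 RPKM and 0.289 to 0.957 RPKM. Myl9, the most abundant at 25.9 to 46.8 RPKM, overlapped between the groups, and its value of -0.11 became 0.16 without NC1.

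The genes of epithelial-mesenchymal transition were counted next, since Twist1, Twist2, Prrx1 and Snai2 act in it. Of 9 further factors 6 were tested, 5 were lower, none had an unadjusted p under 0.05, and the median log2 fold change was -0.19, or -0.11 without HE3 or NC1. Zeb1, at 31.8 to 34.3 RPKM in NC and 34.8 to 38 RPKM in HE, lay above every NC sample in every HE sample at a log2 fold change of only 0.14. Tcf3, the most abundant factor, stood at -0.20 (SE 0.15). Of 10 effector genes, 8 were lower and 2 higher, with a median of -0.36 that was -0.22 without HE3, the sample in which the list lay lowest. Cd44, a hyaluronan receptor, measured 56.6, 62.7 and 44.2 RPKM in NC and 38.2, 25.3 and 28.4 RPKM in HE (-0.84, SE 0.19), and Mmp14 and Itga5 stood at -0.51 and -0.47. Itgb1, the beta1 integrin, went the other way (0.41, SE 0.13), and Vim, the intermediate filament gene that neural progenitors share with mesenchyme, was at 1230 to 1800 RPKM and overlapped (-0.26, SE 0.21).

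Epithelial genes, which transition factors repress, were all at a low level. Of 12, 9 were tested and all 9 had a log2 fold change below 0, with 1 unadjusted p under 0.05 and 2 genes below every NC sample in every HE sample, where 17.9% of all tested genes were below. The median of -0.90 was -0.41 without HE3 and -0.31 with a pseudocount of 1. Relative to the NC mean, the list lay at 0.59 in NC1 and -1.78 in HE3, while HE1 (-0.35) and HE2 (-0.46) were near NC2 (-0.46). Ocln, which encodes a tight junction protein, measured 3.92, 3.28 and 3.7 RPKM in NC and 2.1, 1.22 and 0.619 RPKM in HE (-1.54, SE 0.38, adjusted p = 0.195 in limma). The summed RPKM of the list was 18.5, 7.06 and 12.4 in NC and 10.5, 5.65 and 1.79 in HE, which overlap. Cdh1, which encodes E-cadherin, was at 0.734 RPKM in NC1 and 0.0228 to 0.0802 RPKM in the other samples, and was not tested.

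Among ligands, receptors and targets of TGF-beta signaling all 20 genes were tested, of which 15 were lower and 5 higher, 4 against 0 with an unadjusted p under 0.05, beside 11.8% and 8.68% of all tested genes. The median log2 fold change was -0.29, or -0.17 without HE3 and -0.15 with a pseudocount of 1. Ltbp3, which binds latent TGF-beta, measured 28.9, 24.7 and 28.1 RPKM in NC and 16.2, 17.6 and 8.86 RPKM in HE (-0.99, SE 0.25). Ccn2, a target of the pathway at 0.348 to 1.88 RPKM, stood at -1.17 (SE 0.36) and Ltbp1 at -0.82 (SE 0.29). The ligand gene Tgfb3 stood at -0.78 (SE 0.33), and Smad3, the most abundant gene of the list, at -0.35 (SE 0.17). Of the 5 higher genes, Tgfbi, another target, measured 31.3, 16.4 and 31.9 RPKM in NC. It measured 64.6, 40.1 and 28.5 RPKM in HE, with overlapping groups (0.72, SE 0.36). Of 6 PDGF genes 3 were higher and 3 lower. Pdgfd, a ligand of the receptor encoded by Pdgfrb, stood at 0.85 (SE 0.26) at levels up to 1.09 RPKM, Pdgfa, a ligand of the alpha receptor, at -0.55 (SE 0.15), and Pdgfb, the main ligand of the beta receptor, at -0.53 with overlapping groups.

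**Figure D5:**
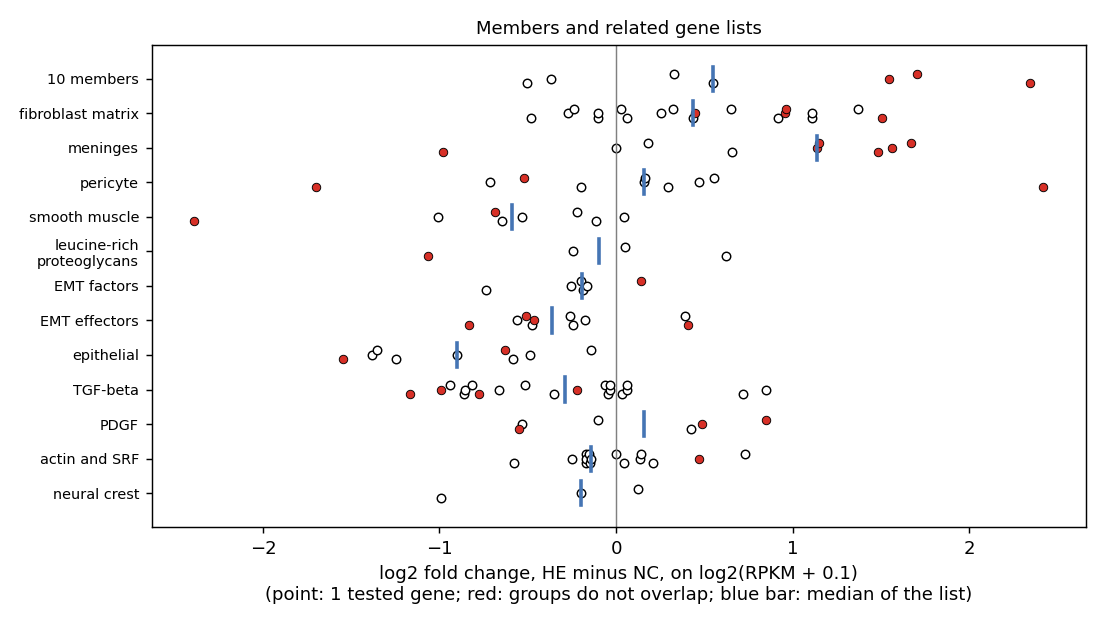
Log2 fold change of HE against NC for each tested gene of the members and of the 12 related lists, with red points for groups that did not overlap and a blue bar at the median of each list. Fibroblast matrix and meninges genes spread mostly to the right of 0, and smooth muscle, epithelial, effector and TGF-beta genes mostly to the left, with medians nearer 0 once HE3 was left out.

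Of 16 genes of actin and serum response factor 15 were tested, with 7 higher, 8 lower and a median of -0.14 that was 0.073 without HE3. Srf itself, at 13.1 to 16.5 RPKM, had a log2 fold change of 0.00, Actb, the most abundant, stood at 0.47 (SE 0.25), and Tagln3, a neuronal relative of Tagln, at -0.58 (SE 0.21). Of 8 neural crest genes 3 were tested, and Sox10 was at 1.65 RPKM in HE3 against 13 to 16.5 RPKM elsewhere, so that its value of -0.99 became 0.034 without HE3.

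Markers of other cell types were counted in the same way, and none was called. Of 10 endothelial markers 5 were tested, and 2 of them, Cdh5 and Esam, lay above every NC sample in every HE sample (14.8% of all tested genes did), with log2 fold changes of 1.69 (SE 0.32) and 1.11 (SE 0.35). The summed RPKM of that list was 3 to 4.13 in NC and 4.85 to 6.45 in HE, while Pecam1 stayed at 3 to 17 reads, Emcn at 0 to 2 reads, and Flt1, the most abundant, stood at -0.20 (SE 0.26). Of 10 microglial markers 4 were tested, 3 higher and 1 lower, and the summed RPKM was 0.765 to 1.15 in NC and 2.44 to 12.5 in HE. C1qb, the 1 tested marker whose groups did not overlap, had 2, 0 and 0 reads in NC and 22, 12 and 35 in HE. Cx3cr1, Csf1r and P2ry12 overlapped, at log2 fold changes of 0.32, 0.22 and -0.10. Among the 6 markers below the filter, Ctss had 0, 0 and 5 reads in NC and 38, 10 and 66 in HE, and C1qa 0, 0 and 1 against 18, 5 and 53. C1qc had 1, 0 and 1 reads in NC against 25, 6 and 32 in HE, and Tyrobp 2, 0 and 1 against 5, 6 and 26. Trem2 had 0, 0 and 3 against 8, 4 and 19, while Aif1 had 7, 4 and 1 against 6, 2 and 2. The part of endothelial and microglial cells in the values of Twist1, Dcn and Mgp was not tested.

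The 10 markers of neural progenitors were all tested, 3 higher and 7 lower. Sox2 and Msi1 lay below every NC sample in every HE sample, where 17.9% of all tested genes did. Sox2 measured 209, 209 and 195 RPKM in NC and 176, 172 and 97.3 RPKM in HE. The summed RPKM of the list was 1370 to 1940 in NC and 1750 to 2950 in HE. Most of that sum was Fabp7, at 736 to 2380 RPKM, whose log2 fold change was 0.62 (SE 0.33). Astrocyte markers had a median of -0.32, neuron markers one of -0.13 (-0.39 without NC2) and oligodendrocyte lineage markers one of -0.26, which was 0.11 without HE3. The 1 tested erythroid marker, Alas2, stood at -0.65, while the globin genes below the filter had reads almost only in HE3, with 26 for Hba-a1 and 25 for Hbb-bs against 0 or 1 in each other sample. Without the filter the erythroid median was 0.54. Within these lists S100b stood at 0.92 (SE 0.24), Aldh1l1 at -0.27 (SE 0.15), Map2 at 0.49 (SE 0.11), Olig1 at 0.57 (SE 0.27) and Tubb3 at -0.13 (SE 0.34). The summed level of the mesenchymal members, 50.1 to 106 RPKM in NC and 56.7 to 124 RPKM in HE, was small beside that of the progenitor markers in every sample.

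With each sample left out in turn, the log2 fold change ran from 1.34 to 1.75 for Twist1, from 1.20 to 2.12 for Dcn and from 1.89 to 2.83 for Mgp. Prrx1 lay below every NC sample once NC2 or HE1 was left out, where 22.5% and 25.9% of all tested genes lay below. None of the 7 members was called under any of the 12 alternatives, with the adjusted p of Twist1 at 0.0981 to 0.502, that of Dcn at 0.0696 to 0.502 and that of Mgp at 0.106 to 0.502.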

How the data were processed

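RNA-Seq of 3 HE and 3 NC samples was used, each of cells from 2 mice. After quality filtering, the authors mapped the reads (the submitters' processing notes name mm10, TopHat2 and CASAVA 1.7) and counted them per gene, while the counting tool, annotation and strand setting are not given in the sources used here. The deposited table holds raw read counts, and RPKM values that the authors computed from count, gene length and total, which were checked to differ from that formula by at most 4.99e-07. The deposited counts are written with commas between digits and were recorded under another unit, so no count model was fitted. The table had 0 columns of other samples and no comparisons by the authors.

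Log2(RPKM + 0.1) was tested two-sided by limma 3.58.1 (R 4.3.3) with group as the only term, a trend of variance on mean level and Benjamini-Hochberg adjustment. The filter, which kept 13952 genes, asked for the equivalent of 10 reads per median library in 3 samples or more and 15 reads in total. The fit was also run on simulated data, and no result given here rests on that run. Depth was 16078675 to 19137059 reads per sample. Gene positions and promoters came from RefSeq tables of GRCm38.p6. Single values used exact permutation tests over the 20 assignments of 6 samples.

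The members and the lists were chosen with earlier results of these data known. Named genes were the 10 members, the genes of 19 related lists with an unadjusted p under 0.05 (at most 4 per list) and the most abundant gene of each, and the 3 genes most like each tested member whose range was at least 2-fold. Srf, Zeb1, Cdh1, Col1a1, Col1a2, Pdgfb, Sox2, Nes, Msi1, C1qa, C1qc, Tyrobp, Trem2, Myh11, Rgs5, Myocd, Mcam, Cspg4, Pecam1, Emcn, Cx3cr1, Csf1r, P2ry12, Aif1, Hba-a1, Hbb-bs, Acta1, Actg1, Actg2, Actc1, Pcsk7, Cox4i2, Tgfbi, Foxc1, Crabp2, Sparc and Col6a1 were named after their values were seen. The alternatives were a pseudocount of 1, median-of-ratios scaling, 2 other filters, a replicate block, each sample left out, and voom on the reads.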

Additional observations from a re-analysis of the deposited data

How the results depend on the processing

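No gene was called under the other pseudocount, scaling, filters, replicate block or voom, and leaving out each sample gave 0 to 103 called genes, the 103 without NC3 (none a member). The number of members with an unadjusted p under 0.05 was 3, or 4 without NC2, HE1 or HE3, and their median log2 fold change ran from 0.25 (without NC2) to 0.82 (without HE3) over the left-out samples. Genes with an unadjusted p under 0.05 numbered 1342 without NC1 and 1638 without NC2, against 2858 with all samples. Over the left-out samples, log2 fold changes turned sign for Pdgfrb (-0.085 without NC2, to 0.67), Flt1 (-0.40 to 0.028, without NC2), Myl9 (-0.26 to 0.16, without NC1), Tubb3 (-0.44 to 0.20, without NC1, and 0.080 without HE2), Ndufa4l2 (-1.26 to 0.31, without HE3) and Sox10 (-1.59 to 0.034, without HE3), and the cause was not tested. Of 946 values recomputed, 924 kept their direction and side of the threshold, or moved by less than the spread. With the replicate number as a block 0 genes were called and 3184 had an unadjusted p under 0.05; same-numbered samples correlated at 0.16, 0.09 and 0.06 in their deviations from the group means, each sample best with its own number, but the labels do not say that a number marks a shared litter or day, so the pairing was not used. Members at a few reads (Twist2, Snai2, Lum) were limited by depth. With 3 samples a group, exact tests could not go below 0.1.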
